A study of Mus musculus with 35 samples.

Results

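Heme breakdown and iron storage were followed through 4 genes, Hmox1, Blvra, Blvrb and Fth1, of the 18194 mouse genes that the arrays represented by a probe set of a single symbol. The genes were chosen by symbol, and all 4 passed the filter on low signals and were among the 14135 genes tested. A probe set is a group of short probes against the same transcript, and where a gene had more than 1, the one with the highest mean stood for it. Hmox1, Blvra and Blvrb had 1 such probe set each, whereas Fth1 had a pair, the lower of which was kept as a check.

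Heme, the iron-carrying ring of hemoglobin, cytochromes and many enzymes, is opened by heme oxygenase to biliverdin, carbon monoxide and free iron. Heme oxygenase 1, encoded by Hmox1, is the inducible form of the enzyme and is known as a stress gene in fibroblasts. Biliverdin reductase A, encoded by Blvra, reduces this biliverdin to bilirubin. Biliverdin reductase B, encoded by Blvrb, acts on flavins and on biliverdin isomers made mainly in the fetus. The released iron is stored in ferritin, of which Fth1 encodes the heavy chain that oxidizes iron as it enters the shell. Hmox1, Blvrb and Fth1 are known as targets of the transcription factor NRF2, which binds with small MAF proteins to antioxidant response elements.

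Primary mouse embryonic fibroblasts (MEFs) from C57BL6/J embryos, with no genetic change, were grown in 5% O2. By the labels the embryos were of embryonic day 15.5, while the study's methods give an earlier day and more passages. By those methods the old medium was exchanged either for fresh medium alone (controls) or for medium with methyl-methanesulfonate (MMS). MMS, a DNA and protein alkylating agent, was used at 40 µg/mL. Controls were collected at 0, 1, 8, 24 and 72 h and treated cells at each time after 0 h, which makes 9 groups with 4 arrays each, except MMS at 72 h with 3. Replicate 4 of that group was not analysed here. The labels do not say whether replicates were separate cultures or embryos, so p-values measure the spread between these arrays, which may be technical, and primary MEFs are a mixed population.

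All 14 fibroblast markers found on the arrays had group means above the filter in all 9 groups. However, MMS lowered 11 of them at 8 h and 13 at 24 h, and Pdgfra was higher at 24 h (mean of 7.82 against 7.04). Of all genes tested, 53.7% were called at 8 h, 28.7% as higher, and 44.5% at 24 h, 25.0% as higher. In control cells at 8 h against 0 h, 6 of the 14 markers were higher and 6 lower, where 59.4% of all genes were called. Col1a1 had a control mean of 11.14 at 8 h, against 13.89 at 0 h and 13.91 at 24 h. Markers of other tissues also stood out on some arrays. Intestinal transcripts were high on 4 arrays, all numbered replicate 3 (control 0 h, MMS 1 h, MMS 24 h and MMS 72 h), where 11 to 17 of 18 intestinal markers exceeded the average of the remaining arrays of the group by over 1 log2 unit. Control 1 h replicate 3 had 8 such markers and control 24 h replicate 4 had 6. Macrophage transcripts were high on all 8 arrays at 8 h. The mean log2 signal of 21 macrophage markers was 7.55 to 7.69 on control and 6.93 to 7.08 on MMS arrays at 8 h, against 4.47 to 5.68 on the other arrays. Comparisons of 8 h with other times thus cannot separate time from the mix of cells. The 5.68 was that of control 0 h replicate 3, where 9 of the 21 markers were over 1 log2 unit higher than on the other 0 h arrays (means of 4.55 to 4.56). Erythroid markers, the transcripts of the cells that make most heme, stayed low, with array means of 3.77 to 4.37 over 13 markers and group means of 3.56 to 4.19 for the globin Hba-a1.

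The bases just before the transcription start are shown for the genes that rose together after MMS, Blvrb and Fth1, and for Blvra, which did not rise with them. Of the 4 genes, Blvra, Blvrb and Fth1 matched a start window in RefSeq (GRCm38.p6), and Hmox1 did not. Windows ran from 250 bases before to 50 bases after the start and were searched on both strands for the antioxidant response element core (TGACNNNGC), the AP-1 motif (TGANTCA), the CCAAT box (CCAAT) and the GC box (GGGCGG). Capitals mark the matches within the 100 bases before the start, 5′ to 3′ on the plus strand, the strand of all 3 genes.
Blvra, chr2:127070557-127070656: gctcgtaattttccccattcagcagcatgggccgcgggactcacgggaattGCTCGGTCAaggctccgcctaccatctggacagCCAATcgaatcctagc
Blvrb, chr7:27447878-27447977: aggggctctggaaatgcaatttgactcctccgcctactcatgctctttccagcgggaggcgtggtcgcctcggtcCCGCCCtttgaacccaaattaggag
Fth1, chr19:9982546-9982645: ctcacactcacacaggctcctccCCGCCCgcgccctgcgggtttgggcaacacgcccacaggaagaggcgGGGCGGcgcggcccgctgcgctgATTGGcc

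In these windows the antioxidant response element core occurred at position -49 of Blvra, on the minus strand, and in none of the windows of Blvrb and Fth1. The GC box occurred at 5 places in the Blvrb window and at 3 in the Fth1 window, and the CCAAT box at position -16 of Blvra and -7 of Fth1. Blvrb and Fth1 had another annotated start each, whose windows held no match. Of all 32851 RefSeq windows of this length, 12.4% held the response element core, 7.8% the AP-1 motif, 37.4% a CCAAT box and 35.7% a GC box, and no pair of matches in the 5 windows of these genes overlapped. The matches describe the sequence and were not tied to binding. Sequence outside the windows was not searched, so a response element further from the start would be missed.

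Hmox1 was higher after MMS at every time point, including 1 h, where none of the other genes of the set was called. At 1 h its log2 signal was 11.01, 11.12, 11.24 and 11.01 on the MMS arrays and 10.31, 9.91, 10.34 and 10.54 on the control arrays. At 8 h it was 12.94, 12.73, 12.48 and 12.69 after MMS and 10.46, 10.34, 10.59 and 9.86 in control cells. The arrays of the groups did not overlap at either time, and the lowest MMS array at 8 h lay above the highest array of any other group.

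The rise of Hmox1 amounted to 1.77-fold at 1 h (log2 difference 0.82, SE 0.15, limma adjusted p = 0.0044) and to 5.27-fold at 8 h (log2 difference 2.40, SE 0.15, adjusted p = 1.7e-14). At 1 h, 0.389% of all genes tested passed the threshold of an adjusted p under 0.05, 0.361% as higher, and Hmox1 was the only one of the 4 genes among them. These 55 genes became 20 without MMS replicate 3 and 457 with array weights, while the Hmox1 call was kept under every alternative (0.70 to 0.91). It ranked 11 of 14135 genes by the size of its increase at 1 h and 26 at 8 h. At 8 h 53.7% of all genes tested were called, 28.7% as higher, and 3.08% were higher by at least 2-fold. Thus passing the threshold at 8 h was common among all genes, whereas an increase of this size was not.

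At 24 h the Hmox1 signal was 11.23, 11.16, 10.98 and 11.13 after MMS against 10.45, 10.18, 10.03 and 10.21 in control cells, and at 72 h it was 10.64, 10.40 and 10.64 against 9.63, 10.26, 10.20 and 10.15. The MMS arrays again lay above all control arrays of the same time, but much closer to them than at 8 h. The increase was 1.87-fold at 24 h (log2 difference 0.91, SE 0.15, adjusted p = 6.7e-06), where 44.5% of all genes were called, 25.0% as higher. At 72 h it was 1.41-fold (log2 difference 0.50, SE 0.16, adjusted p = 0.023), where 20.5% were called, 10.1% as higher and 10.4% as lower. The call at 72 h rested on few arrays, since the log2 difference was 0.36 (adjusted p = 0.12) without control replicate 1, 0.46 without MMS replicate 1 or replicate 3 (adjusted p = 0.080 and 0.093), and 0.46 (adjusted p = 0.065) without the arrays with intestinal transcripts.

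The change of the MMS effect between neighbouring times was tested directly. For Hmox1 the effect grew by 1.58 on the log2 scale from 1 to 8 h (adjusted p = 3.0e-07) and fell by 1.49 from 8 to 24 h (adjusted p = 7.4e-07), with 41.3% and 45.6% of all genes called in these tests. The further difference of -0.41 from 24 to 72 h did not pass (adjusted p = 0.18), where 29.0% of genes were called. In control cells Hmox1 held a level of 10.06 to 10.31 in the group means, and no control time was called against 0 h (log2 differences of -0.04 to 0.21, adjusted p of 0.22 to 0.85). Ordered by level, MMS at 8 h came highest, MMS at 24 h and 1 h followed without differing beyond their spread, and MMS at 72 h overlapped its next neighbour, control at 8 h.

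**Figure D1:**
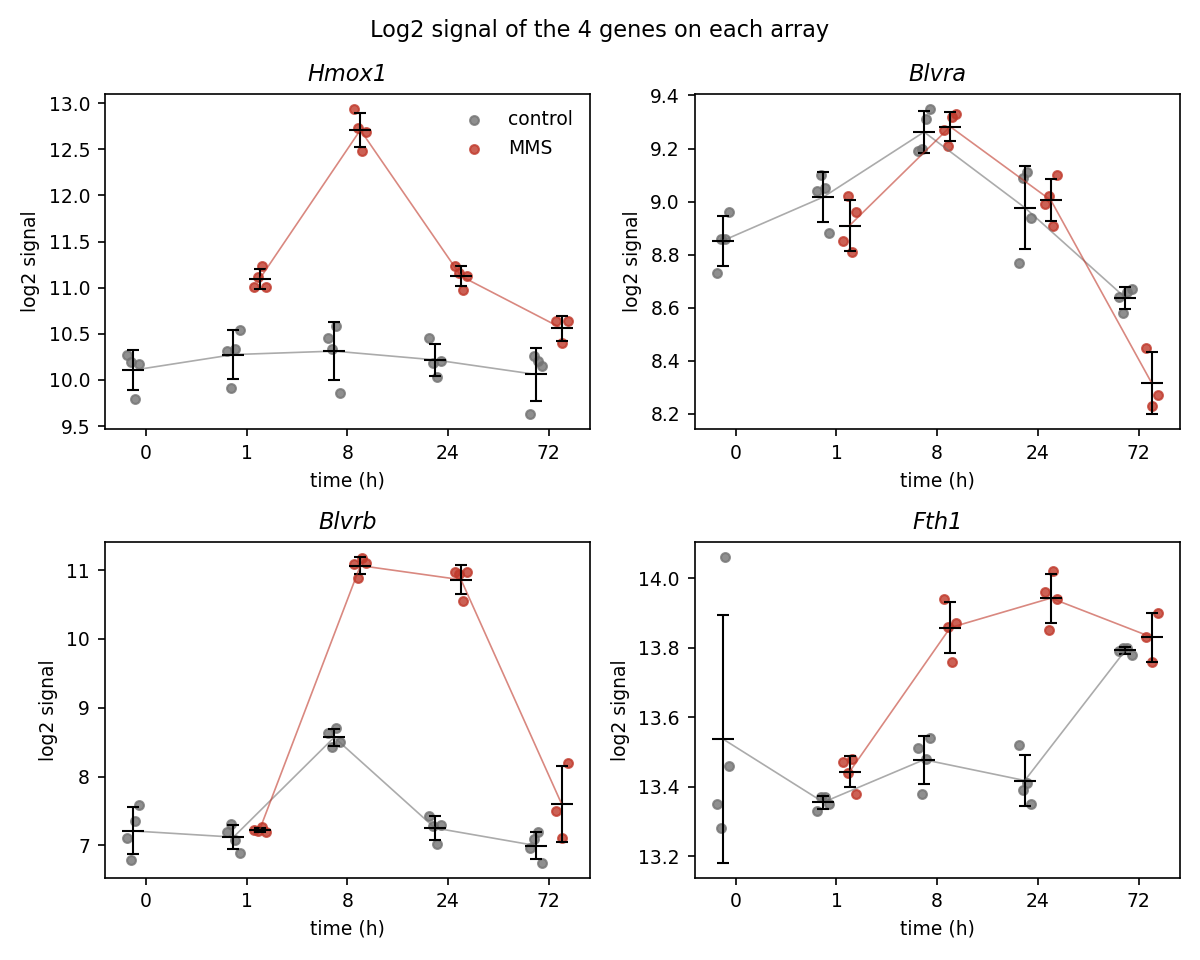
Log2 signal of Hmox1, Blvra, Blvrb and Fth1 (vertical axis, with its own range in each panel) by time in hours (horizontal axis, evenly spaced categories) in control (gray) and MMS-treated (red) MEFs; points are arrays, horizontal bars group means and error bars ± 1 SD. Hmox1 peaked at 12.71 at 8 h, Blvrb stood at 11.07 at 8 h and 10.86 at 24 h, Fth1 moved within 13.28 to 14.06, and the Blvra lines ran together until 24 h.

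Blvrb reached the largest MMS effect of the 4 genes, at 24 h, and was not called at 1 h. At 1 h the Blvrb signal was 7.23, 7.21, 7.27 and 7.20 after MMS against 7.20, 7.31, 7.08 and 6.89 in control cells, and the groups overlapped. At 8 h it was 11.09, 10.89, 11.17 and 11.11 against 8.64, 8.43, 8.71 and 8.50. At 24 h it was 10.97, 10.95, 10.55 and 10.97 against 7.42, 7.28, 7.02 and 7.29. Thus all 8 MMS arrays at 8 and 24 h lay well above every control array of any time.

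Blvrb was 5.64-fold higher at 8 h (log2 difference 2.50, SE 0.16, adjusted p = 6.1e-14) and 12.2-fold higher at 24 h (log2 difference 3.61, SE 0.16, adjusted p = 3.0e-17). By the size of the increase it ranked 2542 of 14135 genes at 1 h, 22 at 8 h and 5 at 24 h, where 2.25% of all genes were higher by at least 2-fold. The effect grew by 2.39 on the log2 scale from 1 to 8 h (adjusted p = 7.8e-10) and by a further 1.11 from 8 to 24 h (adjusted p = 2.0e-04). The MMS level itself did not differ between 8 and 24 h beyond its spread, with means of 11.07 ± 0.12 and 10.86 ± 0.21 (SD, n = 4 each), while the control mean went from 8.57 ± 0.13 to 7.25 ± 0.17. Between these times the control mean thus moved more than the MMS mean.

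In control cells alone, Blvrb was 2.56-fold higher at 8 h than at 0 h (log2 difference 1.36, adjusted p = 2.5e-08), where 59.4% of all genes were called, 35.8% as higher, and the 4 arrays at 8 h lay above the 4 at 0 h (7.11, 6.79, 7.35 and 7.59). The other control times were not called against 0 h, with log2 differences of -0.21 to 0.04 and adjusted p of 0.32 to 0.92. Macrophage transcripts moved with this rise. All 17 macrophage markers tested were also higher in control cells at 8 h than at 0 h, with a median log2 difference of 3.69, against 0.09 over all genes tested. This count and median lean on the filter, since several markers, among them Fcgr3, C1qb and Mrc1, reached log2 4.40 only in the 8 h groups. Over all 21 markers, filtered or not, the control mean was 7.60 at 8 h against 4.83 before exposure time began (0 h). The mean of Lyz2, the lysozyme of macrophages, was 12.10 at 8 h against 6.81 at 0 h, whereas Cd163 and Spic, markers of the macrophages that take up hemoglobin and old red cells, stayed at 3.24 and 3.30. Of 6 erythroid markers tested, 3 were higher too, with a median of 0.31, although Klf1, Tspo2 and Gata1 passed the filter only in the 8 h groups. The part of the macrophage and erythroid transcripts in the Blvrb level at 8 h was not tested. In bulk RNA, fewer cells of a type and less RNA per cell cannot be told apart.

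Between MMS-treated and control cells at 8 h most of the same macrophage markers, though not all, moved the other way from Blvrb. Of the 17 tested, 11 were lower after MMS, 5 were not called and Cd14, a receptor for bacterial lipopolysaccharide, was higher. Their median log2 difference was -0.75, against 0.06 over all genes tested, of which 53.7% were called at 8 h, 28.7% as higher. At 24 h, where the Blvrb difference was larger, Lyz2 was at 5.71 after MMS and 5.77 in control cells, 13 of the 17 markers were not called and Vcam1 was lower. The remaining 3 were higher after MMS at 24 h, the lysosomal protein Cd68 with a mean of 8.40 against 4.95, Cd14 with 8.28 against 5.54 and the growth factor receptor Csf1r with 7.77 against 5.85. Of all genes tested, 44.5% were called at 24 h, 25.0% as higher. Several markers that were not called, among them Fcgr3, C1qb and Mrc1, lay under log2 4.40 in both groups at 24 h, so the count of uncalled markers says little.

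**Figure D2:**
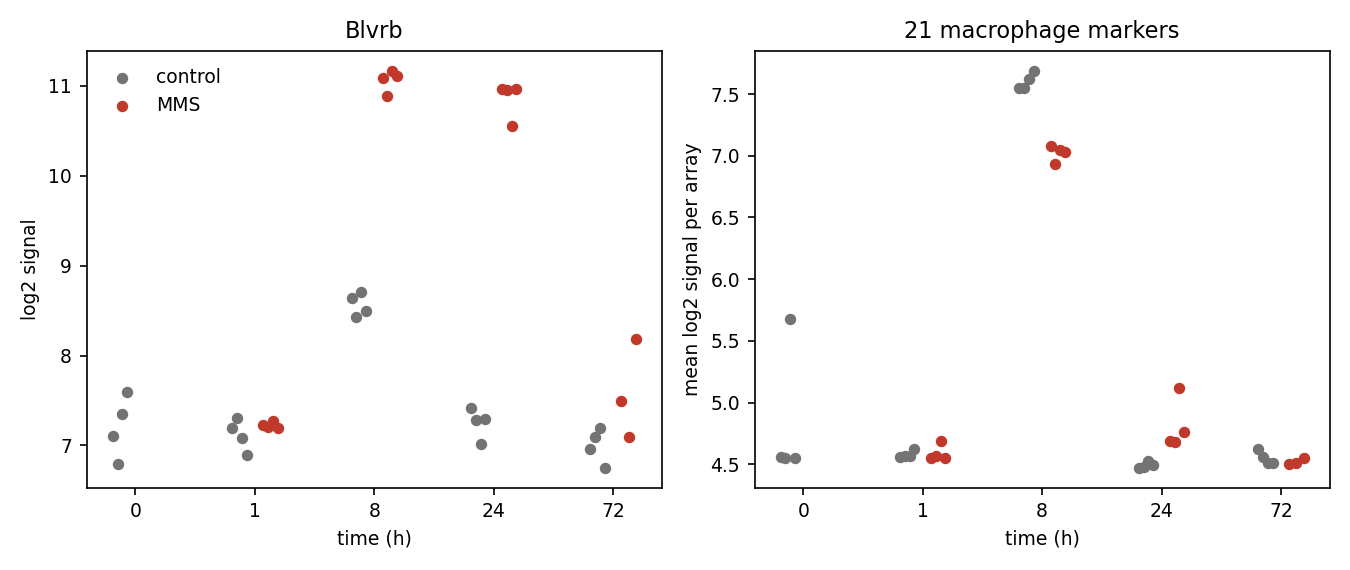
Log2 signal of Blvrb (left) and the mean log2 signal of 21 macrophage markers on each array (right) by time in hours (evenly spaced categories), with 1 point per array for control (gray) and MMS (red). The control arrays at 8 h were high in both panels, the MMS arrays at 8 h were higher than controls for Blvrb and lower for the markers, and the MMS arrays at 24 h were high for Blvrb with marker means of 4.68 to 5.12.

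At 72 h the Blvrb signal had returned close to control levels, with 7.50, 7.10 and 8.19 after MMS against 6.96, 7.09, 7.19 and 6.75, and the groups overlapped. The difference of 0.60 on the log2 scale (SE 0.18, 1.52-fold) passed the threshold with an adjusted p of 0.013, but MMS replicate 3, an array with intestinal transcripts, was well above the other pair. Without it the difference was 0.30 (adjusted p = 0.25), and without control replicate 4 it was 0.52 (adjusted p = 0.051). The drop of the effect from 24 to 72 h, by 3.01 on the log2 scale (adjusted p = 4.4e-11), kept its call without any single array and lay between -3.30 and -2.76.

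Blvra, the other biliverdin reductase, was not called as higher after MMS at any time. Its signal at 8 h was 9.27, 9.21, 9.32 and 9.33 after MMS against 9.19, 9.20, 9.31 and 9.35 in control cells, and the arrays of the groups overlapped. The log2 difference was 0.02 (95% confidence interval -0.12 to 0.16) at 8 h and 0.03 (-0.12 to 0.17) at 24 h, with upper limits of 1.12-fold and 1.13-fold, and it was -0.11 (-0.25 to 0.04) at 1 h. At 72 h the signal was 8.45, 8.23 and 8.27 against 8.64, 8.58, 8.66 and 8.67, and all MMS arrays lay below all control arrays. The signal fell by 0.32 on the log2 scale (SE 0.08, adjusted p = 0.0021), and the change of effect from 24 to 72 h was -0.35 (adjusted p = 0.0100), or -0.24 (adjusted p = 0.092) with each array centred on its median.

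In control cells Blvra was higher at 8 h than at 0 h by 0.41 on the log2 scale (adjusted p = 9.2e-06), where its 0 h arrays read 8.73, 8.86, 8.86 and 8.96. It was lower at 72 h (log2 difference -0.21, adjusted p = 0.017), where 38.1% of all genes were called, 21.8% as higher and 16.3% as lower, and no array of either later time overlapped those at 0 h. Without control 0 h replicate 4 the difference at 72 h was -0.18 (adjusted p = 0.063). Ordered by level, the 8 h groups of both treatments came highest and did not differ beyond their spread, followed by 5 overlapping groups, then control at 72 h and, lowest of all, MMS at 72 h.

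Fth1 rose after MMS at 8 and 24 h, by less than 1.5-fold at either time. Its signal at 8 h was 13.94, 13.86, 13.76 and 13.87 after MMS against 13.51, 13.38, 13.48 and 13.54 in control cells. At 24 h it was 13.96, 13.85, 14.02 and 13.94 against 13.52, 13.39, 13.41 and 13.35. The arrays of the groups did not overlap at either time. The increase was 1.30-fold at 8 h (log2 difference 0.38, SE 0.09, adjusted p = 0.0010) and 1.44-fold at 24 h (log2 difference 0.53, SE 0.09, adjusted p = 2.6e-05), and Fth1 ranked 2693 and 1588 of 14135 genes by the size of its increase.

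The other Fth1 probe set gave nearly the same MMS effects, 0.40 at 8 h (adjusted p = 0.0010) and 0.57 at 24 h (adjusted p = 1.9e-05) on the log2 scale. At 1 h the 4 MMS arrays of the main probe set (13.38 to 13.48) lay just above the control arrays (13.33 to 13.37), but the difference of 0.08 did not pass (adjusted p = 0.94). At 72 h the signal was 13.83, 13.76 and 13.90 after MMS against 13.79, 13.80, 13.80 and 13.78, and the difference of 0.04 (95% confidence interval -0.17 to 0.25) did not pass either. The effect fell by 0.49 on the log2 scale from 24 to 72 h (adjusted p = 0.0073). Here it was the control level that moved, from 13.42 ± 0.07 to 13.79 ± 0.01 (SD, n = 4 each), while the MMS level was 13.94 ± 0.07 (n = 4) and then 13.83 ± 0.07 (n = 3).

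The Fth1 level in control cells depended on the probe set at 8 h. The main probe set differed from 0 h by -0.06 (adjusted p = 0.61), while the other was higher by 0.37 (adjusted p = 0.0020), with arrays of 13.14 to 13.28 at 8 h against 12.65, 12.58, 13.43 and 12.69 at 0 h. Control 0 h replicate 3, which held intestinal and some macrophage transcripts, was the highest of its group on both probe sets, with 14.06 against 13.35, 13.28 and 13.46 on the main one. Control cells at 72 h were higher than at 0 h by 0.25 (adjusted p = 0.032) on the main and by 0.30 (adjusted p = 0.018) on the other probe set, and on the main one the call was lost without any control array at 72 h or without 0 h replicate 1, 2 or 4 (0.17 to 0.26, adjusted p of 0.052 to 0.16). Without the arrays with intestinal transcripts the 72 h difference on the main probe set was 0.43 (adjusted p = 8.7e-07) and the 8 h difference 0.12 (adjusted p = 0.086).

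**Figure D3:**
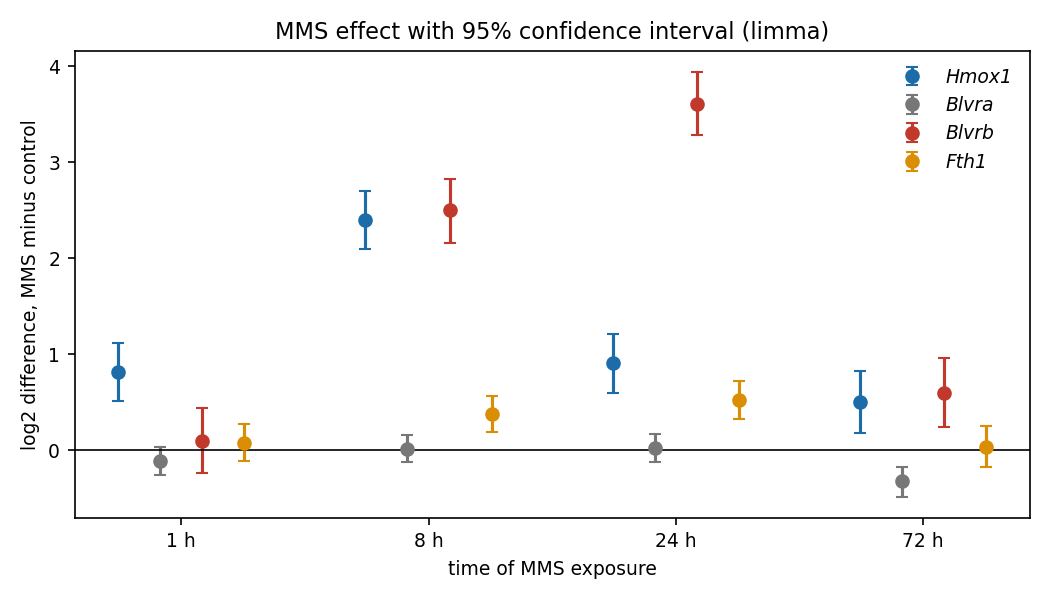
Log2 difference of MMS minus control (vertical axis) at each time of exposure (horizontal axis) for the 4 genes; points are estimates and bars 95% confidence intervals from limma. Hmox1 was highest at 8 h (2.40) and Blvrb at 24 h (3.61), Fth1 reached 0.53 at 24 h, and the Blvra intervals covered 0 until 24 h and lay below it at 72 h.

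In all, MMS raised 1 of the 4 genes at 1 h, 3 at 8 h, 3 at 24 h and 2 at 72 h, and lowered 1, Blvra, at 72 h. Of all genes tested, 0.361%, 28.7%, 25.0% and 10.1% were called as higher at these times, and 10.4% as lower at 72 h. The median log2 difference of the 4 was 0.09, 1.39, 0.72 and 0.27 at these times, and that of all genes tested lay between -0.01 and 0.06. In control cells 0 of 4 were called at 1 h against 0 h by limma (1, Blvra, at an unadjusted p under 0.05), where 11.6% of all genes were called, and 0 of 4 at 24 h (0 unadjusted), where 11.2% were. At 8 h 2 were higher, Blvra and Blvrb, where 35.8% of all genes were. At 72 h Fth1 was higher and Blvra lower, where 21.8% of all genes were higher and 16.3% lower. The comparisons of MMS with control and of control with 0 h share control arrays.

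The genes whose 9 group means ran most like those of each member were listed by Pearson correlation, as a description over 9 means that share arrays. For Blvrb these were Nqo1, a quinone reductase and a standard NRF2 target (r = 0.990), the casein Csn3 (0.988) and the RNA exosome subunit Exosc4 (0.988), and 277 of 14134 genes had r over 0.9. Csn3 passed the filter only through MMS at 8 and 24 h (means of 4.78 and 4.65, against 3.66 to 4.17 in the other groups). Its place in the list thus leans on the filter and on low signals. Nqo1 shared the control rise at 8 h, with means of 6.53, 8.20 and 6.90 in control cells at 0, 8 and 24 h and 9.96 and 10.33 after MMS at 8 and 24 h. For Hmox1 they were Dnttip1 (0.972), 4833438C02Rik (0.970) and the NF-κB subunit Rela (0.968). For Fth1 they were Fam102a (0.988), the ethanolamine kinase Etnk1 (0.976) and the transcription factor Tef (0.964), and for Blvra the chromatin remodeler Chd1l (0.983), Rbm14 (0.978) and the cell cycle protein Cks2 (0.977).

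Genes that control Hmox1 rose with it at 8 h. All 7 regulators tested of 8 listed were higher at 8 h, where 28.7% of all genes were. Their median log2 difference was 0.74, against 0.06 over all genes. At 1 h limma called 2 as higher (4 at an unadjusted p under 0.05), where 0.361% of all genes were. These were the small MAF gene Mafg, by 0.56 (adjusted p = 0.0075), and the stress factor Atf4, by 0.51 (adjusted p = 5.0e-05). The Mafg call at 1 h was lost without control replicate 1 (0.50, adjusted p = 0.059) or MMS replicate 3 (0.50, adjusted p = 0.067). At 8 h Nfe2l2, which encodes NRF2, was higher by 1.04, Mafk by 0.86 and Keap1, whose protein sends NRF2 to degradation, by 0.74. Bach1, the repressor of Hmox1 that heme releases from DNA, was higher by 0.66 at 8 h (adjusted p = 1.1e-06), and it is named for its role with its value known. At 24 h 2 of the 7 were higher, Mafg by 0.63 and Nfe2l2 by 0.34, Atf4 was lower (log2 difference -1.10) and 4 were not called. At 72 h 3 were higher, Maff the most (0.89), Atf4 was lower (-0.27) and 3 were not called. Of all genes, 44.5% were called at 24 h and 20.5% at 72 h.

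Other enzymes known as NRF2 targets are given beside the 4 genes for their size. All 9 tested of 10 listed were higher at 8 h and at 24 h, where 28.7% and 25.0% of all genes were. Their median log2 differences were 1.96 and 2.20, against 0.06 and 0.01 over all genes. At 72 h 6 of the 9 (66.7%) were higher, against 10.1% of all genes. At 1 h Srxn1, which repairs oxidized peroxiredoxins, was the 1 gene of the list called, at 0.81 (limma adjusted p = 0.015), where 0.361% of all genes were higher. An unadjusted p under 0.05 was reached by 5 of 9, and by 1055 of all 14135 genes. Srxn1 lost the call without control replicate 1 or 3 or MMS replicate 3 or 4 (0.76 to 0.80, adjusted p of 0.050 to 0.083). At 8 h the cystine transporter Slc7a11 was higher by 3.70 and the glutathione synthesis subunit Gclm by 1.97. The 2.40 of Hmox1 and the 2.50 of Blvrb at 8 h lay above the list's median, and the 0.38 of Fth1 and the 0.02 of Blvra below it. At 24 h the glutathione transferase Gsta4 was higher by 4.64 and Nqo1 by 3.43, close to the 3.61 of Blvrb. The 0.53 of Fth1 and the 0.91 of Hmox1 at 24 h lay below the list's median.

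Alas1 led the heme synthesis genes after MMS. Of 9 genes listed, 7 were tested, of which 2 were higher and 2 lower at 8 h, 5 were higher at 24 h, with medians of -0.11 and 0.34, against 0.06 and 0.01 over all genes, and 0 were called by limma at 1 h (3 at an unadjusted p under 0.05) or 72 h (2 unadjusted). The share called, 57.1% at 8 h and 71.4% at 24 h, stood beside 53.7% and 44.5% of all genes, so the count at 8 h was close to the background. Alas1, the rate-limiting enzyme of the pathway, was higher by 1.14 at 8 h (2.21-fold, adjusted p = 4.1e-13) and by 1.19 at 24 h (2.29-fold, adjusted p = 2.6e-13). Ppox, which makes protoporphyrin, was lower at 8 h (log2 difference -0.81), while Urod (0.82) and Alad (0.76) were higher at 24 h. The means of Alas1 at 8 h were 10.21 after MMS and 9.07 in control cells, and no arrays overlapped.

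Heme transport and binding was represented by 15 genes, 14 of them tested, of which 5 were higher and 3 lower at 8 h (median 0.29, against 0.06 over all genes), or 57.1% against 53.7% of all genes. At 24 h 7 were higher and 3 lower (median 0.33, against 0.01), or 71.4% against 44.5%, and at 72 h Hebp2 was higher and Abcb6 lower. At 1 h limma called 0 (1 at an unadjusted p under 0.05). At 8 h the heme transporter Flvcr2 was higher by 1.02 and the porphyrin transporter Abcb6 by 0.99, and at 24 h the endosomal heme transporter Slc48a1 was higher by 0.88, the heme exporter Flvcr1 by 0.80 and the heme-binding Pgrmc1 by 0.76. Abcg2, an efflux pump for porphyrins among other compounds, was lower at 24 h (log2 difference -0.77). Hmox2, the constitutive heme oxygenase, named for its role with its values known, had a log2 difference of -0.01 at 1 h, 0.01 at 8 h and -0.01 at 72 h, and was higher by 0.18 at 24 h (1.13-fold, adjusted p = 0.0025).

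Iron genes other than Fth1 showed no common direction. Of 23 genes of iron storage, uptake and export, 18 were tested, with 6 higher and 5 lower at 8 h, 2 higher and 4 lower at 24 h and 3 higher at 72 h, and medians of 0.04, 0.02 and -0.03. The shares called, 61.1%, 33.3% and 16.7%, were near or below the 53.7%, 44.5% and 20.5% of all genes. At 1 h limma called 0 (0 at an unadjusted p under 0.05). Steap2, a metalloreductase, was 3.73-fold lower at 8 h (log2 difference -1.90, adjusted p = 3.0e-19), and the mitochondrial iron importers went apart, with Slc25a37 lower (-0.81) and Slc25a28 higher (0.66). At 8 h Ncoa4, the receptor that delivers ferritin to lysosomes, was higher by 0.37, and at 24 h the ferrireductase Steap3 was higher by 1.01 and the metal transporter Slc39a8 by 0.99. Among 7 iron sensing genes tested of 8 listed, 2 were higher at 8 h and 2 at 24 h (medians 0.08 and 0.11), a share of 28.6% at either time that was near the 28.7% and 25.0% of all genes called as higher, with Hfe, a partner of the transferrin receptors, higher by 1.27 at 24 h (adjusted p = 1.3e-10) and lower at 72 h (-0.48).

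**Figure D4:**
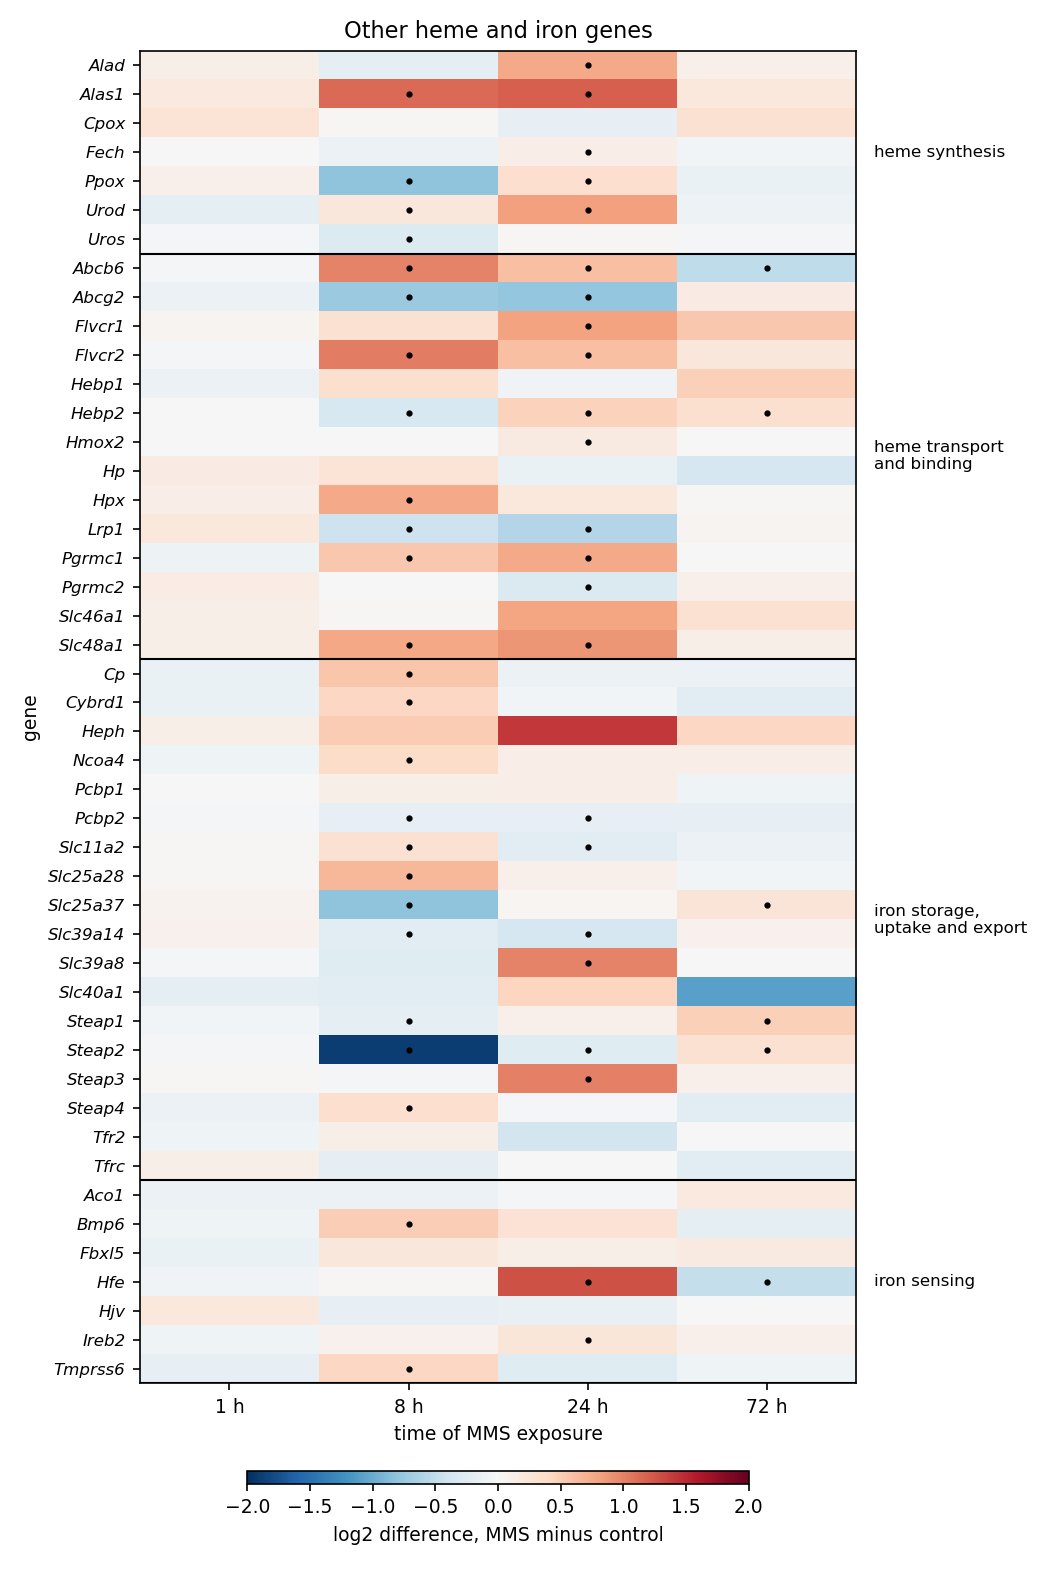
Log2 difference of MMS minus control (color, from -2 to 2) for each tested gene (rows) of the heme synthesis, heme transport and binding, iron storage, uptake and export, and iron sensing lists at 1, 8, 24 and 72 h (columns); black dots mark a limma adjusted p under 0.05. No gene was called at 1 h, Alas1 was higher at 8 and 24 h (1.14 and 1.19), and Steap2 was the most lowered at 8 h (-1.90).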

How the data were processed

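RNA of primary MEFs was hybridised by a service company to Affymetrix mouse arrays, and the authors deposited log2 values for 45101 probe sets, normalized by robust multi-array average (RMA), whose version is not given in the sources used here. The deposited log2 values were used as given. By the platform annotation 34958 probe sets carried 1 gene symbol, 932 several and 9211 none, and 34754 matched a current gene. The probe set with the highest mean represented a gene, and a gene entered the test when any group mean was at or over log2 4.40, the 40th percentile of the whole table, which left 14135. Array medians ran from 4.98 to 5.09; precision is set by how many arrays a group has.

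A mean per group was fitted to the 35 arrays together, leaving 26 residual degrees of freedom, with limma 3.58.1 in R 4.3.3, two-sided, with Benjamini-Hochberg adjustment over all genes within each contrast and a threshold of 0.05. It was tested on simulated data. From each list at each time, up to 4 genes were named, with the largest difference among those called whose MMS arrays lay on 1 side of the controls, together with the 3 genes most like each member. The 4 genes, the lists and the tests were chosen with earlier results of these data known. Listed genes with no probe set of a single symbol here, among them Ftl1, Trf, Hsf1, Prdx1, Fbn1 and 4 erythroid markers, were not tested, and Alas2, Cd163, Ftmt, Lcn2 and Hamp fell below the filter.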

Additional observations from a re-analysis of the deposited data

Results flagged for a closer look

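Among 40 groups of 4 arrays examined for a single distant array, 2 passed Dixon's 95% critical value, as chance would give in about 1 of 20 groups. Blvrb on MMS 24 h replicate 3 was the lowest of its group (10.55), with a gap of 0.946 of the group's range, and Fth1 on its other probe set was highest on control 0 h replicate 3 (13.43), with a gap of 0.866. Both arrays held intestinal transcripts, whose part in these values was not tested. Without the arrays with intestinal transcripts the Blvrb difference at 24 h was 3.71.

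The MMS effect differed between neighbouring time points, by limma's test of the difference itself, for Hmox1 from 1 to 8 h (1.58) and from 8 to 24 h (-1.49), and for Blvrb from 1 to 8 h (2.39), 8 to 24 h (1.11) and 24 to 72 h (-3.01). It also differed from 24 to 72 h for Blvra (-0.35) and Fth1 (-0.49). The control mean moved more than the MMS mean for Fth1 from 24 to 72 h (control 13.42 to 13.79) and for Blvrb from 8 to 24 h (control 8.57 to 7.25), whereas for Blvrb from 24 to 72 h the MMS mean moved more (10.86 to 7.60).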

How the results depend on the processing

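Of 44 results on the 4 genes, 33 kept their side of the threshold under all alternatives, among them 14 of 16 for MMS against control. The exceptions there were Hmox1 and Blvrb at 72 h. Called results among the 33 also kept their direction, whereas some that were not called changed sign, such as Blvra after MMS at 24 h (-0.05 to 0.06). Values are log2 differences unless they count genes, and causes were not tested. With array weights Blvrb at 72 h was 0.28, Blvra in controls 0.26 at 1 h, 0.23 at 24 h and -0.12 at 72 h, Fth1 in controls at 8 h turned to 0.12 (0.37 on the other probe set), the Hmox1 change after 24 h was -0.67 and the Fth1 change to 8 h 0.28. These weights gave 457 genes at 1 h, 5617 at 72 h, 4744 in controls at 1 h and 4843 at 24 h, against 55, 2895, 1640 and 1580. With only the groups of the contrast Blvrb at 72 h was 0.60, Fth1 in controls at 72 h 0.25 and its change to 8 h 0.29, and 870 and 663 genes were called in controls at 1 and 24 h. With centred arrays the Blvra change after 24 h was -0.24 and the Fth1 change to 8 h 0.35. Fth1 in controls at 72 h was 0.24 after quantile normalization and 0.25 without the 8 h arrays. Without the arrays with intestinal transcripts Hmox1 at 72 h was 0.46, Blvrb 0.30 and the Fth1 change to 8 h 0.31. Leaving out single arrays gave, at 72 h, Hmox1 0.36 to 0.58 and Blvrb 0.30 to 0.85, in controls at 72 h Fth1 0.17 to 0.43 and Blvra -0.25 to -0.18, Hmox1 in controls at 8 h 0.11 to 0.36, its change after 24 h -0.55 to -0.33, and 20 to 56 genes at 1 h. The Fth1 call in controls at 72 h was lost without any of the 4 control arrays at 72 h (0.25 to 0.26) and without control 0 h replicate 1, 2 or 4 (0.19, 0.17, 0.23), and Hmox1 in controls at 8 h was called without control 8 h replicate 4 (0.36). The 1 h count was 20 without MMS replicate 3, 27 without control replicate 3, 33 without control replicate 1 and 34 without control replicate 2 or MMS replicate 2.

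Same-numbered MMS and control arrays deviated from their group means with correlations of -0.26 to 0.31, positive in 13 of 15 pairs, and at no time did every pair exceed 0.1, so the numbers were not treated as pairing the arrays, although intestinal transcripts were found on replicate 3 of several groups. With the replicate block no call of the 4 genes changed (Hmox1 at 1 h 0.82, adjusted p = 0.0085), and 52 genes were called at 1 h. For the named genes of the lists, 46 of 1084 combinations of result and setting lost the call and 0 turned, and of 888 combinations for the lists' counts 53 moved.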
